A study of Homo sapiens with 12 samples.

Results

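GNRHR and 6 other hormone and transmitter receptor genes that are known from aberrant expression in adrenal tumours were followed through 12 RNA-seq libraries of NCI-H295R cells. The 7 genes are GNRHR, LHCGR, GIPR, AVPR1A, HTR4, HTR7 and PTGER4, out of 60617 genes in the count table, and they were taken from it by gene symbol. These cells are an established line from a human adrenocortical carcinoma and make steroid hormones. There were 3 biological replicates in each of 4 groups. The EZH2i group received 62 µM EPZ-6438, an inhibitor of the histone methyltransferase EZH2, for 96 h. Cells of the CBPi group were kept for 96 h in 26 µM PRI-724, a compound that stops CBP, a transcriptional coactivator, from binding β-catenin. The FSK group had DMSO, the vehicle, during 48 h, followed by 48 h of 10 µM forskolin, an activator of adenylyl cyclase that increases cAMP. The baseline group received DMSO for 96 h. Both inhibitors were given at their IC50 doses, per the labels, and forskolin was present for a shorter time than either inhibitor. GNRHR was taken as selected on its level in these same libraries, since its log2 fold change under EPZ-6438 was among the lowest of all genes. Its values against baseline are therefore descriptions with no test.

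Cortisol synthesis is normally driven by ACTH through its receptor MC2R, which couples to Gs and raises cAMP. In some adrenal tumours and hyperplasias other G protein-coupled receptors appear or are overexpressed, and their own ligands can then drive cortisol or aldosterone output without ACTH. LHCGR, the receptor of luteinizing hormone and chorionic gonadotropin, GIPR, the receptor of the gut hormone GIP, the serotonin receptors HTR4 and HTR7, and PTGER4, a receptor of prostaglandin E2, couple to Gs. AVPR1A, a vasopressin receptor, and GNRHR, the receptor of gonadotropin-releasing hormone, couple to the Gq family and phospholipase C. GNRHR is best known from the gonadotrophs of the pituitary, and HTR4 is also present in the normal human adrenal cortex.

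The regions just before the RefSeq starts of 3 of these genes are shown because GNRHR carries the largest difference and because HTR4 and GIPR rose together with EZH2i and with FSK. Each is the 250 bases before the start, from RefSeq on GRCh38.p14, written 5′ to 3′ on the strand of the gene. Capitals mark TGACG or its complement CGTCA, the core of the cAMP response element, and AAGGTCA or its complement TGACCTT, the core bound by the steroidogenic factor SF-1 (NR5A1). Both strands were searched for these and for the full element TGACGTCA, which contains TGACG.
GNRHR, chr4:67754389-67754638, minus strand: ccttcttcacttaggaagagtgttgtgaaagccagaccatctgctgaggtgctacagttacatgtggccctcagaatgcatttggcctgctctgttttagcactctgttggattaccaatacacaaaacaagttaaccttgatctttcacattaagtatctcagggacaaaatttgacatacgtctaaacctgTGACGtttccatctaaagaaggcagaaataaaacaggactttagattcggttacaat
HTR4, chr5:148654528-148654777, minus strand: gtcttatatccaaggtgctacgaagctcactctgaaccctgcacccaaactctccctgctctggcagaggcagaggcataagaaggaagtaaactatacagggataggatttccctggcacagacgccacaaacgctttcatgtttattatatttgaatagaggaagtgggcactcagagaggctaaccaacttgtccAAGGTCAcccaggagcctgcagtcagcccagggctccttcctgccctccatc
GIPR, chr19:45667971-45668220, plus strand: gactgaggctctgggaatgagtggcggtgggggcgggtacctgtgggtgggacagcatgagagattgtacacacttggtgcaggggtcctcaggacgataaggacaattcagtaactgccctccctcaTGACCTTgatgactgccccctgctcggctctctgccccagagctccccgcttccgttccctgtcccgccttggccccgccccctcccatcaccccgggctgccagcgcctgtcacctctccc
The GNRHR window held TGACG 57 to 53 bases before the start and no AAGGTCA. The HTR4 window held AAGGTCA 52 to 46 bases before the start, and the GIPR window held its complement 122 to 116 bases before the start. A further RefSeq start of HTR4 had CGTCA 162 to 158 bases before it. Both HTR4 windows lie inside the gene as GENCODE release 29 places it, at chr5:148451032-148677235, and not before it. Among 35116 RefSeq windows of this length, 21.2% held TGACG, 3.4% held AAGGTCA and 1.6% held the full element, each counted on either strand. The windows of LHCGR, AVPR1A, HTR7 and PTGER4 held none of these letters. All 250 bases of the PTGER4 window are exon of PTGER4 itself in GENCODE release 29. A match is a run of letters and not a measured binding site.

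The libraries held 29.52 to 31.54 megacounts with EZH2i, 20.55 to 28.78 with CBPi, 23.41 to 25.37 with FSK and 21.05 to 27.02 at baseline. The labelled cell type was checked on 9 adrenocortical genes, all of which passed the filter on low counts. Their summed level was 614 to 642 CPM with EZH2i, 590 to 662 CPM with CBPi, 3890 to 4090 CPM with FSK and 2050 to 2130 CPM at baseline, where CPM is the count relative to the library size after TMM scaling (trimmed mean of M values). With FSK the members did not all go with the sum. SULT2A1 had a mean of 8.08 CPM with FSK, against 74.2 CPM at baseline. INHA was at 8.83 CPM with FSK, against 9.47 CPM at baseline, and the other members rose. Of 9 pituitary genes, FSHB, TSHB, GH1 and POU1F1 had at most 3 counts in every library, and only CGA and TBX19 passed the filter. INSL3 and FSHR, which mark Leydig and granulosa cells, PTPRC and CD3E of leukocytes, PECAM1 and CDH5 of endothelium, and TH and PNMT of the adrenal medulla also had at most 3 counts in every library. The summed level of the 5 fibroblast genes was 17.3 to 19 CPM with EZH2i, 8.79 to 12 CPM with CBPi, 12.5 to 13.4 CPM with FSK and 18.2 to 19.9 CPM at baseline. COL1A1 carried most of that sum, and with FSK its members went different ways. COL1A1 was at 6.52 ± 0.661 CPM with FSK, against 16.4 ± 0.675 CPM at baseline, while DCN was at 1.66 ± 0.199 CPM with FSK, against 0.715 ± 0.207 CPM at baseline (SD, n = 3 each). LUM had raw counts of 133, 99 and 95 with FSK, against 1, 2 and 0 at baseline. The part of these markers in the receptor results was not tested. In bulk RNA, fewer cells with a transcript and less transcript per cell cannot be told apart.

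Of the 7 receptors, GNRHR, HTR4, GIPR and PTGER4 could be judged and the other 3 were too low. A gene was called too low where it did not pass the filter on low counts or where its mean raw count stayed under 10 in every group. All 84 receptor values in the table were whole numbers within 1e-06, although only 65.6% of the non-zero values in the table were. Per kilobase of the deposited gene length, GNRHR was the most abundant of the 7 at baseline, at 5.37 CPM per kb, ahead of PTGER4 at 0.234, HTR4 at 0.115, AVPR1A at 0.0543, GIPR at 0.043 and HTR7 at 0.0428. With EZH2i the order changed, and HTR4 stood first at 0.511 CPM per kb, followed by PTGER4 at 0.241, GNRHR at 0.16 and GIPR at 0.141. With CBPi HTR4 was also first, at 0.467 CPM per kb, with GNRHR at 0.189. With FSK GNRHR was at 4.31 CPM per kb and HTR4 at 0.36.

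**Figure D1:**
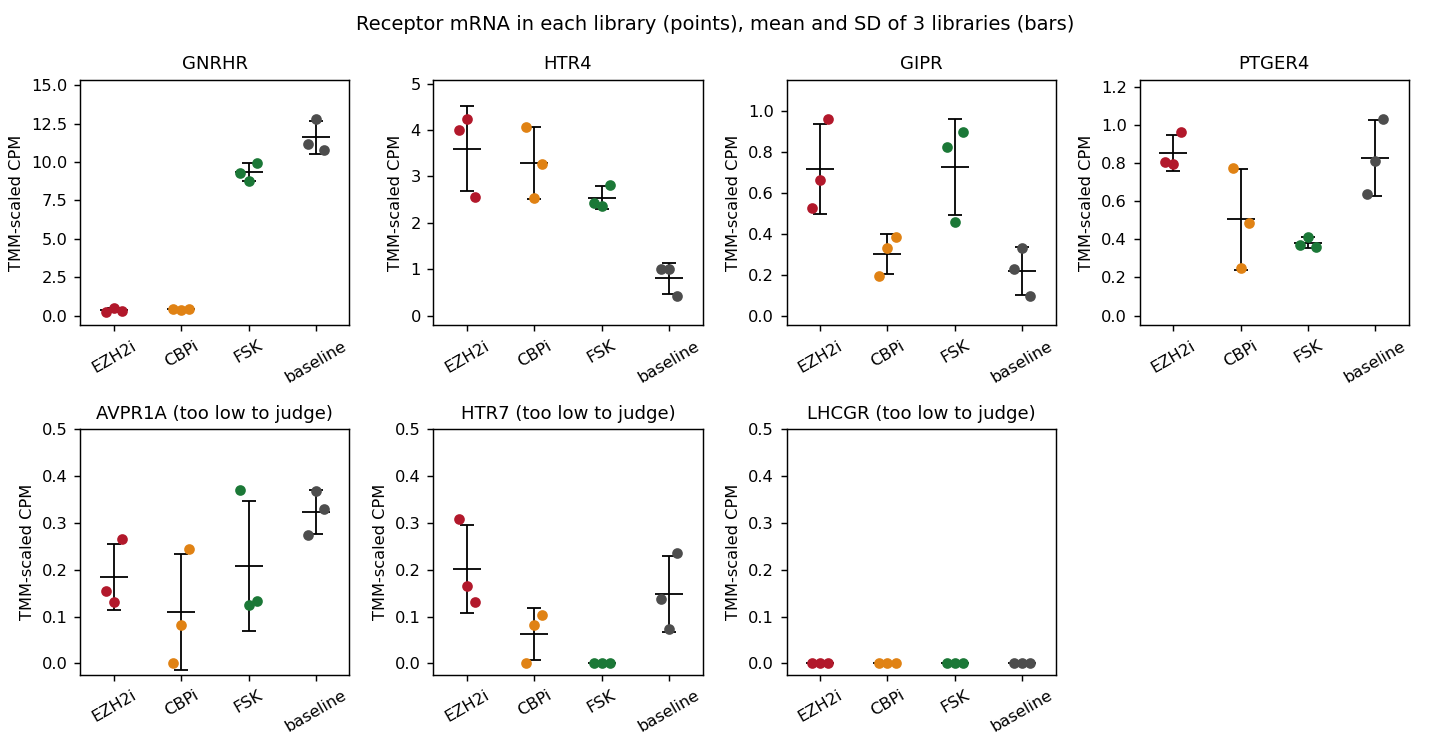
TMM-scaled CPM of the 7 receptors (vertical axes, linear and differing between panels) in the 4 groups; points are libraries, and bars give the mean and SD of 3. GNRHR lay at 0.247 to 0.497 CPM with EZH2i and 0.373 to 0.436 CPM with CBPi, against 10.8 to 12.8 CPM at baseline, and LHCGR was at 0 throughout.

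GNRHR was close to the detection limit with both inhibitors and stayed near its baseline level with forskolin. It is gene ENSG00000109163, on the minus strand at chr4:67739328-67754360 in GENCODE release 29. Its raw counts were 8, 15 and 9 with EZH2i, 9, 9 and 12 with CBPi, 226, 212 and 222 with FSK, and 246, 349 and 230 at baseline. All 6 libraries of the inhibitors lay far below all 6 of FSK and baseline. The level was 0.347 ± 0.132 CPM with EZH2i, 0.409 ± 0.0324 CPM with CBPi, 9.34 ± 0.59 CPM with FSK and 11.6 ± 1.07 CPM at baseline (SD, n = 3 each). The fitted level was 33.4-fold lower with EZH2i than at baseline (log2 fold change -5.06 ± 0.17 SE). That was the 2nd lowest log2 fold change of 20360 genes tested, of which 57.8% were called in this comparison, 29.5% higher and 28.3% lower, and 65.9% had groups that did not overlap. With CBPi it was 28.3-fold lower than at baseline (-4.82 ± 0.17 SE), the 7th lowest of 20360, with 58.9% of genes called, 29.8% higher and 29% lower, and 62.1% not overlapping. The 2 inhibitor groups overlapped, and their log2 difference was -0.24 ± 0.34 SE for EZH2i minus CBPi.

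With forskolin GNRHR was 1.25-fold lower than at baseline (log2 fold change -0.32 ± 0.1 SE), with 9.29, 8.77 and 9.95 CPM in FSK libraries, against 11.2, 12.8 and 10.8 CPM at baseline. These groups did not overlap, as was the case for 57.5% of all genes tested, while 50.6% were called, 25.5% higher and 25.1% lower. With scaling by library size alone, 4119 of 10376 genes called with FSK were higher, against 5197 of 10299 as reported. The comparisons with baseline share the baseline libraries and are not independent of each other. The contrast of CBPi with FSK uses neither the EZH2i nor the baseline libraries for its values, though all 12 libraries set its spread. There GNRHR was 22.6-fold lower with CBPi (log2 fold change -4.5 ± 0.18 SE, edgeR adjusted p = 1.72e-14). In this contrast 58.8% of genes were called, 29.3% higher and 29.5% lower, and 61.5% did not overlap. Whether the CBPi libraries had a part in the choice of GNRHR is not known. This p-value is therefore not established as free of that choice. All 3 CBPi libraries were lower than all 3 FSK libraries.

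GNRHR shares 82 of its 2164 exon bases (3.8%) with UBA6-AS1, an antisense RNA on the other strand, and the strand setting of the counting is not given in the sources used here. UBA6-AS1 had raw counts of 286, 264 and 245 with EZH2i, 225, 278 and 329 with CBPi, 206, 238 and 220 with FSK, and 161, 221 and 154.5 at baseline. Its raw counts were not low in the libraries in which GNRHR was low. How reads in the 82 shared bases were assigned was not tested. MC2R, the ACTH receptor, which was measured in the same libraries, was at 0.99 ± 0.112 CPM with EZH2i, 0.18 ± 0.0592 CPM with CBPi, 10.6 ± 1.25 CPM with FSK and 3.53 ± 0.543 CPM at baseline (SD, n = 3 each).

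The 8 genes whose pattern was most like that of GNRHR were GRIK4, ECI2, TOMM5, PSME1, UQCRFS1, HAT1, PI4K2B and NANOGP1. Likeness was Pearson's r of log2 CPM over the 12 libraries among the 14798 genes that had a symbol and averaged 1 or more in log2 CPM, and it was 0.991 to 0.994 for these 8. The 12 libraries form 4 groups, and after the group means were removed r was -0.03 to 0.53, so most of the likeness lies between the groups. Within them TOMM5 had the highest r, 0.53, and HAT1 the lowest, -0.03. GRIK4, which encodes a kainate receptor subunit, was the most like, at 3.82 ± 0.256 CPM with EZH2i, 4.02 ± 0.0842 CPM with CBPi, 16.5 ± 1.19 CPM with FSK and 18.8 ± 1.32 CPM at baseline (SD, n = 3 each). ECI2, an enzyme of fatty acid oxidation, was at 40.3 ± 1.97 CPM with EZH2i, 40 ± 3.15 CPM with CBPi, 115 ± 5.9 CPM with FSK and 122 ± 2.58 CPM at baseline. NANOGP1 is a pseudogene of NANOG and may share reads with it. All 8 had a smaller difference than GNRHR in both inhibitor groups.

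**Figure D2:**
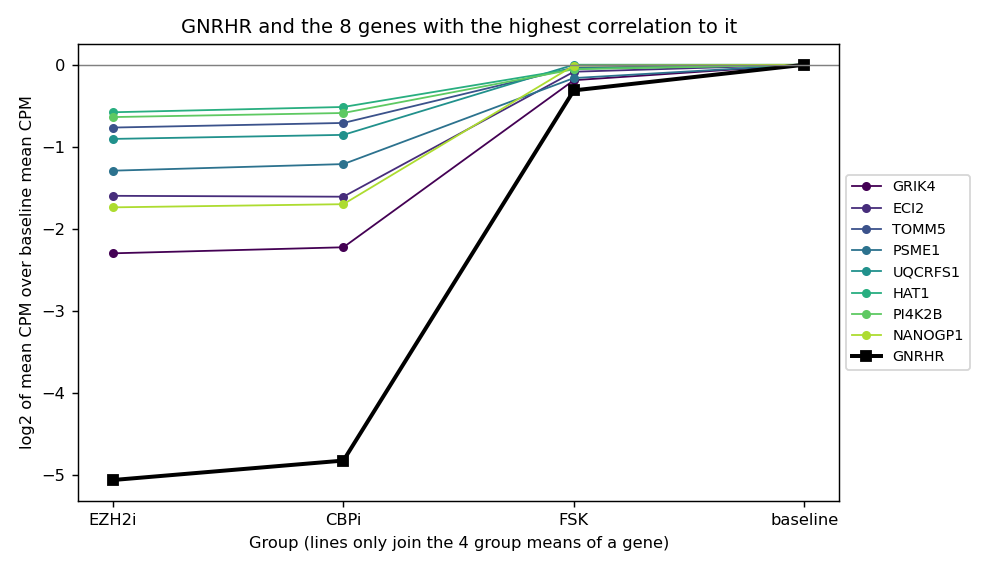
Group means of GNRHR (black) and of the 8 genes most correlated with it, as log2 of mean CPM over the baseline mean CPM (vertical axis), in the 4 groups. GNRHR had fitted log2 fold changes of -5.06 with EZH2i and -4.82 with CBPi, and the other lines run the same way with smaller differences.

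HTR4 rose with all 3 treatments. This serotonin receptor gene, ENSG00000164270 on the minus strand at chr5:148451032-148677235, had raw counts of 130, 128 and 77 with EZH2i, 84, 61 and 94 with CBPi, 59, 57 and 63 with FSK, and 22, 27 and 9 at baseline. Every treated library was above every baseline library, and baseline replicate 3 was the lowest of all. The level was 3.6 ± 0.917 CPM with EZH2i, 3.29 ± 0.771 CPM with CBPi, 2.54 ± 0.252 CPM with FSK and 0.807 ± 0.332 CPM at baseline (SD, n = 3 each). With EZH2i it was 4.36-fold higher than at baseline (log2 fold change 2.13 ± 0.27 SE, edgeR adjusted p = 1.32e-06). With CBPi it was 3.95-fold higher (1.98 ± 0.28 SE, adjusted p = 5.31e-06), and with FSK 3.06-fold higher (1.62 ± 0.29 SE, adjusted p = 0.00012). Between treatments EZH2i and CBPi were not told apart (log2 difference 0.14, 95% interval -0.28 to 0.56, adjusted p = 0.6), nor were CBPi and FSK (0.37, 95% interval -0.1 to 0.83, adjusted p = 0.166). EZH2i was 1.42-fold higher than FSK (log2 0.51 ± 0.21 SE, adjusted p = 0.0431), with overlapping libraries. This last call did not hold with DESeq2 (adjusted p = 0.0534) or limma voom (adjusted p = 0.07), or without EZH2i replicate 1 (adjusted p = 0.146), EZH2i replicate 2 (0.174) or FSK replicate 1 (0.114), 2 (0.127) or 3 (0.0508).

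GIPR was higher with EZH2i and with FSK, as a description. The gene, ENSG00000010310 on the plus strand at chr19:45668244-45683724, had raw counts of 17, 20 and 29 with EZH2i, 4, 8 and 11 with CBPi, 20, 11 and 20 with FSK, and 5, 9 and 2 at baseline. In CPM the EZH2i and FSK libraries lay above all CBPi and baseline libraries. It was through its EZH2i and FSK libraries that this low gene passed the filter, and a gene that passes in that way had to differ between groups to be tested. The adjusted p values of its tests as reported are conditional on that, and its fold changes are read as descriptions. Each test is given also without a filter, where every gene with a count in any library was tested. The level was 0.716 ± 0.222 CPM with EZH2i, 0.303 ± 0.0977 CPM with CBPi, 0.725 ± 0.236 CPM with FSK and 0.218 ± 0.119 CPM at baseline (SD, n = 3 each). EZH2i was 3.1-fold higher than baseline (log2 fold change 1.63 ± 0.42 SE, edgeR adjusted p = 0.00238) and FSK 3.13-fold (1.65 ± 0.44 SE, adjusted p = 0.00348). Without a filter the edgeR adjusted p was 0.00014 with EZH2i and 0.000302 with FSK. That setting also lowered the adjusted p of HTR4 with EZH2i, from 1.32e-06 to 2.78e-25, at log2 fold changes of 2.13 and 2.12. The smaller values without a filter are therefore not read as added support for GIPR. The comparison of CBPi with baseline was too low to judge, with a mean raw count of 7.67 with CBPi and 5.33 at baseline (log2 fold change 0.45, 95% interval -0.63 to 1.53).

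Between treatments the same limits hold for GIPR. Its adjusted p values against CBPi are conditional on the filter it passed through its EZH2i and FSK libraries. The values are therefore descriptions, and the smaller ones without a filter are not read as added support. GIPR was 2.26-fold higher with EZH2i than with CBPi (log2 1.18 ± 0.39 SE, edgeR adjusted p = 0.0175, and 0.00556 without a filter). That call was lost without EZH2i replicate 3 (adjusted p = 0.0998) or CBPi replicate 1 (0.0684). With CBPi it was 2.29-fold lower than with FSK (log2 -1.2 ± 0.4 SE, adjusted p = 0.0149, and 0.00568 without a filter), a call that was lost without CBPi replicate 1 (adjusted p = 0.0577), FSK replicate 1 (0.0546) or FSK replicate 3 (0.0664). EZH2i and FSK were not told apart (log2 difference -0.02, 95% interval -0.7 to 0.66, adjusted p = 0.967).

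PTGER4 fell with FSK. The gene, ENSG00000171522 on the plus strand at chr5:40679498-40693735, had raw counts of 26, 24 and 29 with EZH2i, 16, 6 and 14 with CBPi, 9, 10 and 8 with FSK, and 14, 22 and 22 at baseline. All FSK libraries were below all baseline libraries in CPM, while EZH2i and CBPi libraries overlapped them. The level was 0.852 ± 0.0933 CPM with EZH2i, 0.504 ± 0.264 CPM with CBPi, 0.381 ± 0.0292 CPM with FSK and 0.828 ± 0.199 CPM at baseline (SD, n = 3 each). FSK was 2.15-fold lower than baseline (log2 fold change -1.1 ± 0.35 SE, edgeR adjusted p = 0.012), and without baseline replicate 3 this call was lost (adjusted p = 0.0584). CBPi had a log2 fold change of -0.74 ± 0.33 SE and did not pass (adjusted p = 0.0585), and EZH2i had 0.05 ± 0.28 SE (95% interval -0.54 to 0.63, adjusted p = 0.903). The gene overlaps TTC33 on the opposite strand but shares no exon bases with it.

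EZH2i libraries had 2.22-fold more PTGER4 than FSK libraries (log2 1.15 ± 0.33 SE, adjusted p = 0.00511), and the groups did not overlap. EZH2i was 1.73-fold above CBPi (log2 0.79 ± 0.31 SE, adjusted p = 0.0461), but this was lost with DESeq2 (adjusted p = 0.119), in a fit of the 2 groups alone (0.0678), and without any 1 of EZH2i replicates 1 (0.071), 2 (0.0682) or 3 (0.132) or CBPi replicates 2 (0.223) or 3 (0.106). CBPi and FSK were not told apart (log2 difference 0.36, 95% interval -0.44 to 1.17, adjusted p = 0.438). No count of the calls above is read as a property of the receptors, since calls were common over all genes, at 57.8% with EZH2i, 58.9% with CBPi and 50.6% with FSK. For EZH2i against CBPi 43.9% of all genes were called, 21.7% higher and 22.2% lower, and 52% did not overlap. For EZH2i against FSK 61.6% were called, 30.3% higher and 31.3% lower, and 67.5% did not overlap.

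**Figure D3:**
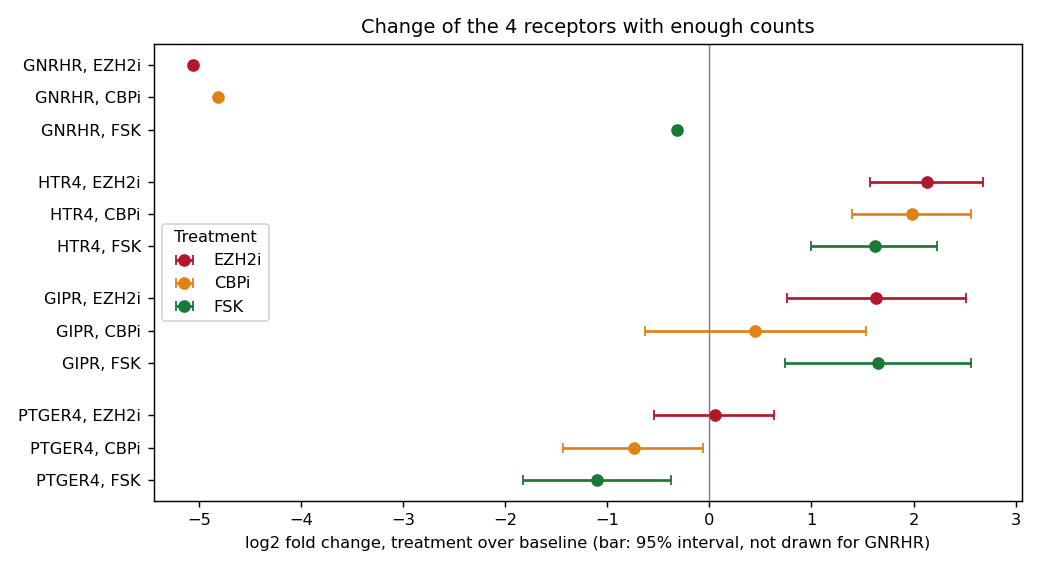
Log2 fold change of the 4 judged receptors in each treatment over baseline (horizontal axis), with 95% intervals from the fitted model for HTR4, GIPR and PTGER4. HTR4 lay above 0 in all 3 treatments (2.13, 1.98 and 1.62), and GNRHR at -5.06, -4.82 and -0.32.

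LHCGR, HTR7 and AVPR1A were too low to judge. LHCGR (ENSG00000138039, minus strand, chr2:48686775-48755730) was at 0 in all 12 libraries. A count of 0 allows up to 3 counts, which is 0.0951 to 0.146 CPM in these libraries and covers counting error only. It shares 900 of 4999 exon bases (18%) with AC073082.1 on the same strand, but that gene had at most 1 count in any library. HTR7 (ENSG00000148680, minus strand, chr10:90740823-90857698) had raw counts of 10, 5 and 4 with EZH2i, 0, 2 and 3 with CBPi, 0, 0 and 0 with FSK, and 3, 2 and 5 at baseline. AVPR1A (ENSG00000166148, minus strand, chr12:63142759-63150942) had 5, 4 and 8 with EZH2i, 0, 2 and 7 with CBPi, 9, 3 and 3 with FSK, and 6, 10 and 7 at baseline. At this depth these counts were too few to judge a difference in any of the 3 genes in the analysis as reported.

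Over the 12 libraries, r of log2 CPM was 0.6 between HTR4 and GIPR, -0.69 between HTR4 and GNRHR and -0.18 between GIPR and GNRHR. These values describe 4 groups of 3 and have no test. The genes most like HTR4 were SLIT2, TTC23 and XPO6 (r 0.964 to 0.973). Those most like GIPR were MLXIPL, IL18BP and SLC41A2 (r 0.891 to 0.914), and those most like PTGER4 were ZNF212, PCSK1N and GPR153 (r 0.921 to 0.93).

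Among 25 other G protein-coupled receptors reported in cortisol- or aldosterone-producing adrenals, 10 passed the filter. With EZH2i 2 rose and 4 fell, with CBPi 1 rose and 5 fell, and with FSK 3 rose and 4 fell. PTGER3, 1 of the 2 that rose with EZH2i, passed the filter through its EZH2i libraries alone. Over all genes 57.8% were called with EZH2i (29.5% higher), 58.9% with CBPi (29.8% higher) and 50.6% with FSK (25.5% higher), and the counts of this and the next 3 lists stand beside these shares. With so few genes a list, nothing particular to a list is read from them. Their median log2 fold change was -0.15 with EZH2i, -0.8 with CBPi and -0.42 with FSK, against 0.02, 0.01 and 0.01 over all genes tested. TBXA2R, the thromboxane receptor, fell to 0.325 ± 0.0753 CPM with EZH2i (9.71-fold) and 0.358 ± 0.0735 CPM with CBPi (8.88-fold), against 3.2 ± 0.332 CPM at baseline (SD, n = 3), and to 2.04 ± 0.126 CPM with FSK (1.56-fold). MC2R fell with both inhibitors and rose 3.01-fold with FSK. AGTR1, the angiotensin II receptor that drives aldosterone, fell in all 3 treatments, to 30.1 ± 1.44 CPM with EZH2i, 37.4 ± 0.721 CPM with CBPi and 32.5 ± 1.15 CPM with FSK, against 65.5 ± 2.34 CPM at baseline. TSHR, the thyrotropin receptor, also fell in all 3, by 1.32, 1.48 and 0.81 on the log2 scale with EZH2i, CBPi and FSK. ADORA2B, an adenosine receptor that couples to Gs, rose in all 3, with log2 fold changes of 0.9, 1.18 and 1.29.

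The other prostaglandin E2 receptors were also measured. PTGER3, which couples mainly to Gi, had raw counts of 58, 45 and 60 with EZH2i, against 10, 6 and 9 at baseline, a fitted ratio of 4.87. It passed the filter through its EZH2i libraries alone, so this value is a description. PTGER2, which couples to Gs, fell 3.05-fold with CBPi, to 0.944 ± 0.261 CPM, against 2.85 ± 0.538 CPM at baseline, and fell 1.7-fold with FSK. PTGER1 did not pass in any comparison with baseline (log2 fold changes 0.46, 0.35 and -0.2 with EZH2i, CBPi and FSK).

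Of 24 genes of ligands, serotonin and prostaglandins, 15 did not pass the filter. GNRH1 and GNRH2, which encode both forms of gonadotropin-releasing hormone, had 0 to 4 and 0 to 8 raw counts per library. GIP and AVP had at most 1 count, FSHB had 0, and TPH2, an enzyme of serotonin synthesis, had at most 1. The other 9 passed the filter, 1 rising and 4 falling with EZH2i, 2 rising and 7 falling with CBPi, and 2 rising and 4 falling with FSK (median log2 fold change -0.08, -0.74 and -0.16). CGA, the alpha subunit shared by the glycoprotein hormones, fell to 0.615 ± 0.0411 CPM with EZH2i and 0.0669 ± 0.0874 CPM with CBPi, and rose to 6.73 ± 1.36 CPM with FSK, against 2.19 ± 0.496 CPM at baseline (SD, n = 3 each). PTGS1, a cyclooxygenase that starts prostaglandin synthesis, rose 3.53-fold with FSK, to 25.3 ± 0.543 CPM, against 7.16 ± 0.754 CPM at baseline, and fell 1.53-fold with EZH2i and 2.01-fold with CBPi. SLCO2A1, which takes prostaglandins up into cells, rose 4.26-fold with EZH2i and 5.02-fold with CBPi and fell 2.14-fold with FSK. PTGES, a prostaglandin E synthase, fell 2.01-fold with CBPi and 3.05-fold with FSK, at low counts. Its raw counts were 5, 14 and 8 with CBPi and 2, 9 and 6 with FSK, against 20, 13 and 19 at baseline. The CBPi libraries overlapped those at baseline. MAOB, a monoamine oxidase, fell 2.25-fold with FSK, to 20.7 ± 0.618 CPM, against 46.7 ± 1.6 CPM at baseline.

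The Gq side through which GNRHR and AVPR1A signal was present. Of 17 coupling genes 14 passed the filter, with 9 rising and 2 falling with EZH2i, 7 rising and 3 falling with CBPi, and 3 rising and 7 falling with FSK (median log2 fold change 0.52, 0.27 and -0.3). GNAQ was at 176 ± 17.6 CPM with EZH2i, 160 ± 9 CPM with CBPi, 85.2 ± 3.56 CPM with FSK and 120 ± 5.6 CPM at baseline, and passed in all 3 comparisons. PLCB1, a phospholipase C beta, rose 1.91-fold with EZH2i and 1.57-fold with CBPi and fell 2.24-fold with FSK. PLCB4, which is counted among the 9, had raw counts of 17, 42 and 22 with EZH2i, against 8, 3 and 2 at baseline, and no other group had counts high enough to carry it past the filter. ITPR1, an IP3 receptor, went against the list, falling 1.53-fold with EZH2i and 1.33-fold with CBPi and rising 1.55-fold with FSK. PRKCD, a protein kinase C gene, fell in all 3 treatments (2.15-, 1.76- and 1.75-fold with EZH2i, CBPi and FSK), and PRKCA rose in all 3 (1.94-, 2.01- and 3.59-fold). GNAS, which encodes the Gs alpha subunit used by the other receptors, did not pass in any, at 786 ± 19.6 CPM with EZH2i, 814 ± 19.2 CPM with CBPi, 763 ± 21.7 CPM with FSK and 769 ± 14.6 CPM at baseline.

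The last list holds 7 genes of receptor kinases and arrestins, which switch many G protein-coupled receptors off. All 7 passed the filter, with 2 rising and 2 falling with EZH2i, 0 rising and 3 falling with CBPi, and 2 rising and 2 falling with FSK (median log2 fold change -0.03, -0.27 and -0.1). ARRB1, an arrestin, rose to 7.3 ± 0.339 CPM with EZH2i and 8.74 ± 0.321 CPM with FSK and fell to 2.73 ± 0.205 CPM with CBPi, against 5.06 ± 0.516 CPM at baseline (SD, n = 3 each). GRK3, a receptor kinase, fell 1.82-fold with FSK, and GRK4 fell 1.49-fold with EZH2i and 1.21-fold with CBPi.

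**Figure D4:**
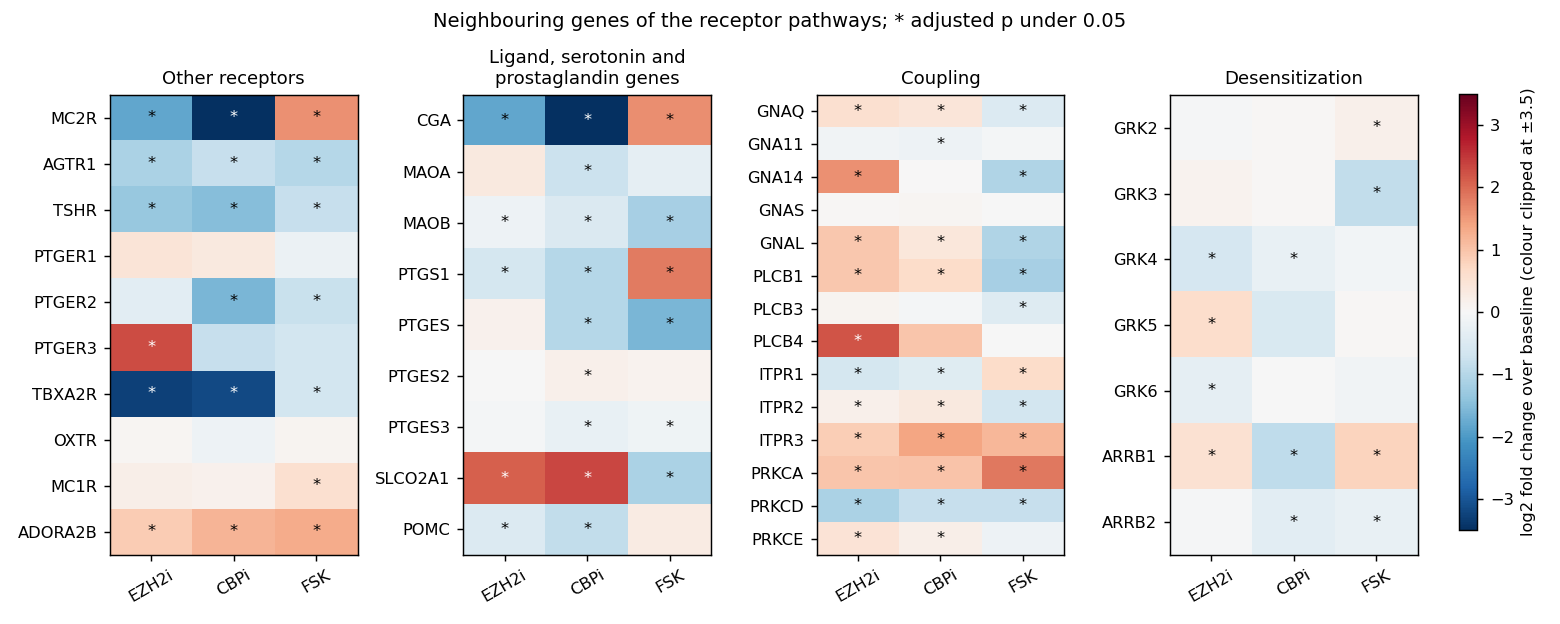
Log2 fold change over baseline (colour) of the tested genes of the 4 neighbouring lists (rows) in the 3 treatments (columns); stars mark an adjusted p under 0.05. TBXA2R and MC2R are among the darkest blue cells with CBPi (log2 fold changes -3.15 and -4.28), while GNAS carries no star.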

How the data were processed

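Polyadenylated RNA of 12 libraries was counted per gene. Per the submitters' processing notes the authors used STAR, featureCounts and hg38; their versions, how strand and multi-mapping reads were treated, and the release of the annotation were not given in the sources used here. Values in the table the authors deposited are estimated counts per gene, many of them fractional, beside a gene length that served only for levels per kilobase. Symbols were matched for 60261 of 60617 genes.

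After rounding, edgeR 4.0.16 was run under R 4.3.3. Genes were kept by filterByExpr, which left 20360, libraries were scaled by TMM, and all 12 libraries entered 1 robust quasi-likelihood fit. The Benjamini-Hochberg adjustment ran over every gene tested, with a threshold of 0.05. P-values measure the spread between cultures of 1 cell line. SE is the log2 fold change divided by the square root of F. Likeness used log2 CPM with a prior count of 2. Positions are from GENCODE 29, whose gene lengths equalled the deposited ones for 79.1% of 58542 genes, and sequences are from RefSeq.

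Members and lists were chosen with earlier results of these data known. Named genes are the 7 members, the genes of each list with the largest changes or against its direction, genes of pathway steps next to a member, and the genes most correlated with a member; results for other genes of the lists are not reported one by one. Alternatives were RLE, upper quartile and library size scaling, 2 other filters, DESeq2 1.42.0, voom in limma 3.58.1, fits of 2 groups, and each library left out.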

Additional observations from a re-analysis of the deposited data

How the results depend on the processing

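The number of genes called changed by less than 1.5 times in every alternative, for all 6 comparisons. GNRHR kept its direction in all 14 alternatives of each comparison with baseline, with log2 fold changes between -5.4 and -4.86 for EZH2i, between -4.87 and -4.74 for CBPi and between -0.39 and -0.24 for FSK. Its lowest EZH2i value, -5.4, came without EZH2i replicate 2, the library with 15 of the group's 32 counts. HTR4 passed in every alternative against baseline, with EZH2i at 1.85 to 2.32, CBPi at 1.7 to 2.18 and FSK at 1.34 to 1.81, while GIPR ran from 1.31 to 2.1 with EZH2i and from 1.32 to 2.12 with FSK. GIPR was not tested under the filter of at least 1 CPM in 3 libraries. It passed against baseline with EZH2i and FSK in the other 13 settings, the one without a filter included. The limits given above for its tests apply to these calls too.

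PTGER4 changed its sign or its call against baseline in all 3 treatments, in some settings. With replicates left out in turn its log2 fold change ran from -0.1 to 0.22 with EZH2i, from -1.12 to -0.44 with CBPi and from -1.25 to -0.93 with FSK, and the CBPi change passed with voom (-0.83, adjusted p = 0.0391), without CBPi replicate 1 (adjusted p = 0.0115) and without baseline replicate 1 (adjusted p = 0.0388). With EZH2i the sign turned without EZH2i replicate 3 (-0.05) or baseline replicate 1 (-0.1). Between treatments, differences near 0 changed sign for GIPR in EZH2i minus FSK (0.07 with library size scaling, 0.17 and 0.03 without EZH2i replicates 1 and 2, 0.09 and 0.15 without FSK replicates 1 and 3, range -0.28 to 0.17), for HTR4 in EZH2i minus CBPi (-0.0011 without CBPi replicate 2, otherwise up to 0.34) and for PTGER4 in CBPi minus FSK (-0.02 without CBPi replicate 1, otherwise up to 0.67). Of the 10 tests between treatments 6 passed, and 4 to 6 passed with a replicate left out. Under a filter of at least 1 CPM in 3 libraries, which removes GIPR and PTGER4 from the test, 2 passed. Over all genes tested, 43.9% were called in EZH2i minus CBPi, 61.6% in EZH2i minus FSK and 58.8% in CBPi minus FSK. The 6 include calls of GIPR and the call of GNRHR, whose limits are given above. Nothing particular to the receptors is read from this count. HTR4 in CBPi minus FSK passed without CBPi replicate 2 (adjusted p = 0.0466). The cause of these shifts was not tested. With a prior count of 0.5, 7 of the 8 genes most like GNRHR were shared.

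AVPR1A and HTR7 have no value in the analysis as reported. Without a filter, AVPR1A did not pass with edgeR in any comparison. HTR7 passed there in FSK minus baseline (adjusted p = 0.00513) and EZH2i minus FSK (adjusted p = 0.000337). HTR7 had 0 counts in FSK, 19 in all with EZH2i and 10 at baseline. The same setting lowered the adjusted p of HTR4 in FSK minus baseline from 0.00012 to 3.54e-12. HTR7 therefore stays too low to judge. LHCGR gave no value in any setting. No paired analysis was possible because the labels give no replicate numbers. At these depths a receptor with under 10 counts per library gives wide intervals.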

Other observations

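Several genes next to the receptors stayed below the filter on low counts and are given as raw counts, with no test. LHB, the beta subunit of luteinizing hormone, had 4, 8 and 2 counts in FSK libraries, against 1, 0 and 0 at baseline. CGA, its partner subunit, was highest in the same group. CGB3 and CGB5, beta subunit genes of the same list, were not. CGB3 had rounded counts of 5, 1 and 1 with FSK, 6, 7 and 10 with CBPi, and 2, 3 and 4 at baseline. CGB5 had 2, 1 and 1 with FSK, 4, 6 and 4 with CBPi, and 1, 2 and 2 at baseline. PTGS2, the inducible cyclooxygenase, had 5, 4 and 8 counts with EZH2i, 0 in all CBPi libraries, 6, 2 and 1 with FSK, and 1, 0 and 0 at baseline. TPH1, a tryptophan hydroxylase that starts serotonin synthesis, had 7, 6 and 6 counts with EZH2i, 4, 6 and 7 with CBPi, 3, 0 and 0 with FSK, and 1, 2 and 2 at baseline. These genes were chosen for mention after their values were seen.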
